A study of Mus musculus with 2 samples.

Results

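The genes that bring fatty acids into muscle cells and oxidise them in mitochondria were examined in the gastrocnemius, the large muscle of the calf. The group was a list of 35 named genes, chosen by name and function rather than by a rule on their values, out of 55536 annotated genes in the deposited tables. By role the list holds 5 genes of uptake and binding, 3 lipases, 5 acyl-CoA synthetases, 4 genes of the carnitine shuttle, 9 enzymes of the beta-oxidation spiral, 3 electron transfer genes, 3 auxiliary enzymes for unsaturated fatty acids and 3 acyl-CoA thioesterases. Total RNA was sequenced in 2 libraries from male B6CASTF1/J mice, F1 hybrids of C57BL/6J and CAST/EiJ, whose age is given as 18 to 20 months in the description and as unknown in the age field. Both libraries belong to 1 group with no treatment or altered gene named, so no conditions could be compared, and replicate 2 was set against replicate 1 to show how far the libraries differed. The labels number the males differently but attach the same donor record to both, so differences between these libraries may be technical. The p-values below hold counting error only and measure no spread between animals or libraries.

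Muscle takes up fatty acids that lipoprotein lipase frees from circulating triglyceride, and it also frees them from its own lipid droplets. Inside the cell a fatty acid is bound by a carrier protein, joined to coenzyme A, passed across the mitochondrial membranes as a carnitine ester, and shortened in repeated turns of the beta-oxidation spiral. Each turn yields acetyl-CoA for the citric acid cycle and electrons for the respiratory chain. Slow, oxidative fibres are known for a high capacity of this route, and fast glycolytic fibres for a low one.

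Replicate 2 held 44919441 expected counts and replicate 1 held 40795740. Levels are given in TPM, transcript abundance divided by gene length and scaled to a common total, so that genes can be compared. Skeletal muscle genes checked the tissue label: Acta1 had 18065 TPM in replicate 2 and 20725 TPM in replicate 1, and Ckm had 16010 and 21854 TPM in those libraries. Mb, the myoglobin gene of oxidative fibres, had 2635 TPM in replicate 2 and 510 TPM in replicate 1, higher in replicate 2 like most of the 35 genes; its part in the results was not tested. Some markers of other cell types and of fibre types differed between the libraries, and their values are given with the results below. In bulk tissue, fewer cells of a type and less RNA per cell cannot be told apart.

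Of the 35 genes, 34 reached 1 TPM in each library and are called detected, against 45.7% of nuclear protein-coding genes. The exception was the thioesterase gene Acot1, with 1.32 TPM in replicate 2 and 0.14 TPM in replicate 1. A mean TPM of at least 10 was reached by 27 of the genes, and one of at least 100 by 11. The 35 genes together took 0.695% of the TPM of nuclear protein-coding genes in replicate 2 and 0.359% in replicate 1 (0.527 ± 0.238%, SD, n = 2), a 1.94-fold larger share in replicate 2. The largest summed level was that of the spiral enzymes, 1121 TPM in replicate 2 and 645 TPM in replicate 1, followed by uptake and binding with 880 and 292 TPM in those libraries. Thioesterases had the lowest, 75.5 TPM in replicate 2 and 53.4 TPM in replicate 1.

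**Figure D1:**
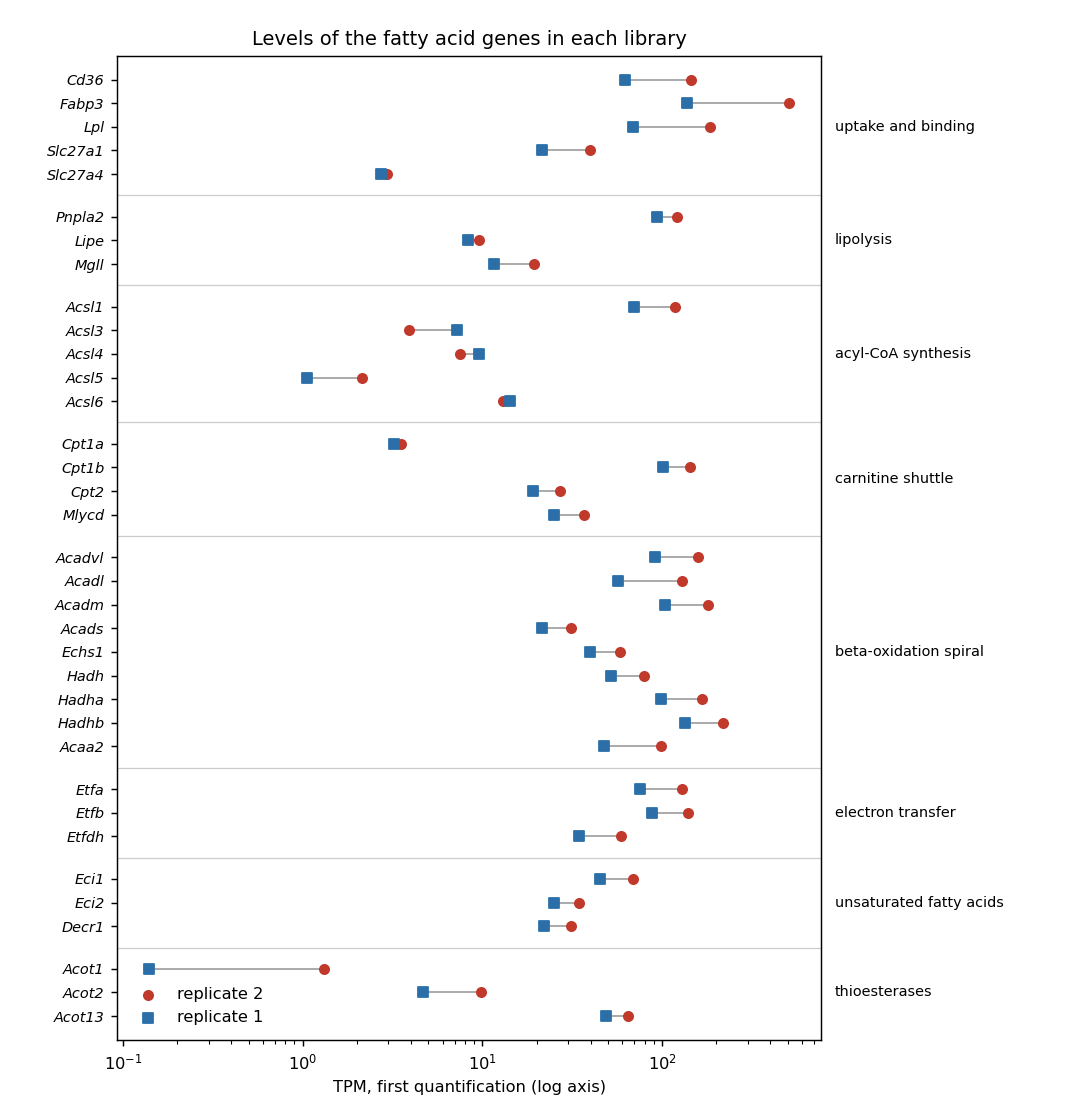
TPM of each of the 35 genes on a log axis, grouped by role, with replicate 2 as circles and replicate 1 as squares. The circle lies right of the square except for Acsl3, Acsl4 and Acsl6.

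Differences between the libraries were tested gene by gene with a 2-sided exact binomial test of rounded expected counts, which holds counting error only and compares these libraries, not conditions. A gene was called at a Benjamini-Hochberg adjusted p below 0.05, over 14959 genes tested, and at least 2-fold. Of the 35 genes, 6 were called higher in replicate 2 (Fabp3, Lpl, Cd36, Acadl, Acot2 and Acot1), where 4.40% of all genes tested were. None was called higher in replicate 1, where 1.66% of all genes tested were, and edgeR's exact test called none in that direction. Without the fold minimum, the 3 members with a log2 ratio below 0 had an adjusted p below 0.05. Small differences in well-counted genes also pass without that minimum. Outside the list, Pfkm did at 0.951-fold and Crat at 1.07-fold (adjusted p = 1.53e-28 and 1.21e-07, exact binomial test). The share of all genes tested that passed without the fold minimum is not given here, so such passes are no result about the members. At 1.5-fold, 17 members were called higher in replicate 2, where 7.74% of all genes tested were, and 1 (Acsl3) higher in replicate 1, where 3.74% were. The log2 ratio of replicate 2 to replicate 1 was above 0 for 32 of 35 members (33 when scaled by the ERCC spike-ins, synthetic RNAs added to each sample) and for 50.8% of all genes tested. The members' median log2 ratio was 0.57, a 1.49-fold difference, beside 0.0053 over all genes tested. Members are mostly well expressed, so the same was read among the 4434 tested nuclear protein-coding genes of at least 10 TPM: 2.41% of these were called higher in replicate 2 and 0.812% higher in replicate 1 at 2-fold, and 4.76% and 2.82% at 1.5-fold. Of that set 45.3% had a log2 ratio above 0, and its median was -0.021. Of the 27 members at this level, 26 had a log2 ratio above 0.

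**Figure D2:**
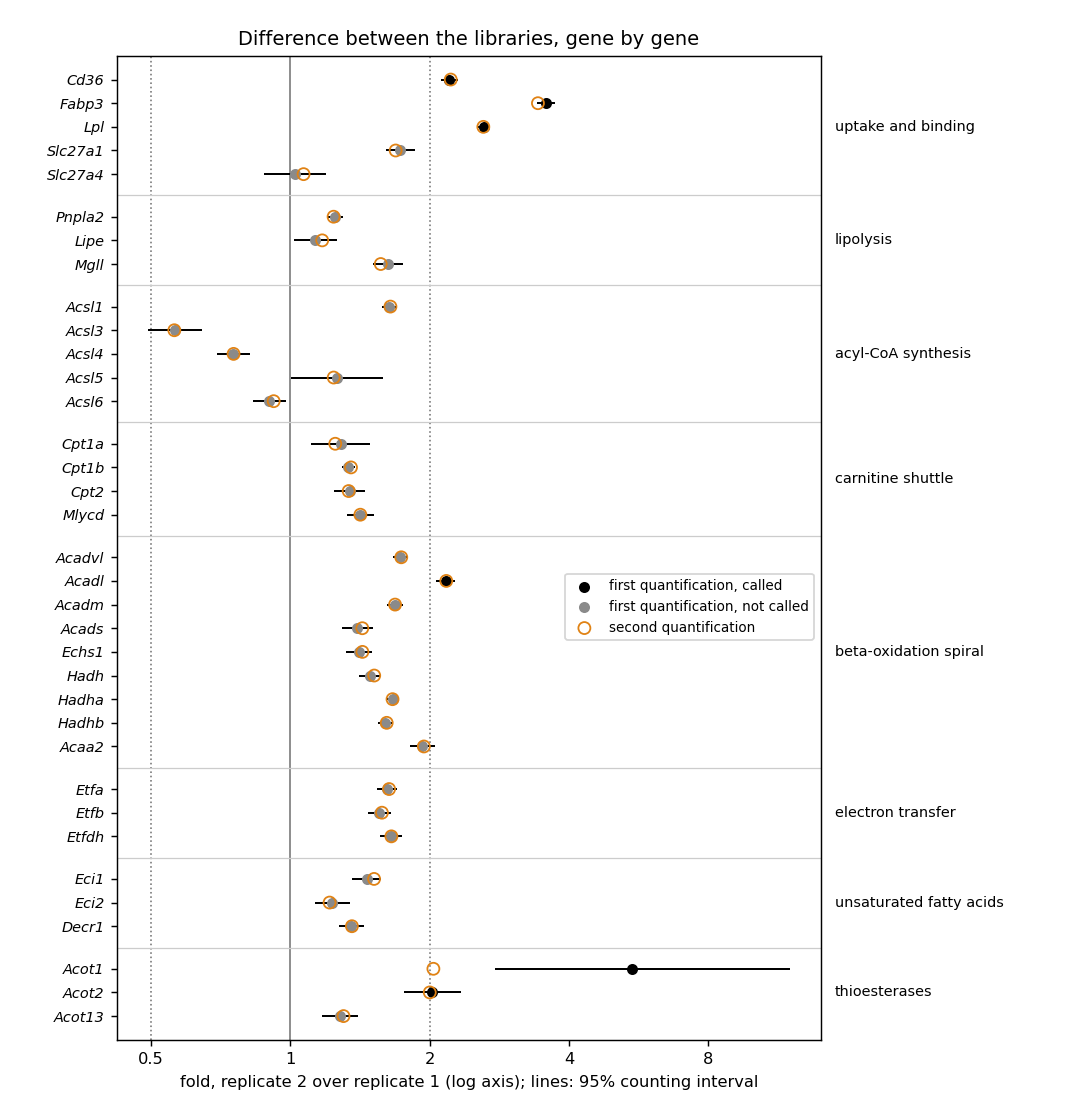
Fold of replicate 2 over replicate 1 for each gene on a log axis, with the 95% counting interval of the first quantification (lines), genes called (black) or not (grey), and the fold in the second quantification of the same reads (open circles). Most genes sit between 1 and 2. The called genes Fabp3, Lpl, Cd36, Acadl, Acot2 and Acot1 lie beyond 2, Acot2 with an interval that spans 2. In these folds of scaled counts the quantifications part only for Acot1, at 5.48 and 2.04.

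Among members of at least 10 TPM, the 3 with the largest folds were genes of uptake and binding. Fabp3, the fatty acid binding protein of heart and skeletal muscle (ENSMUSG00000028773.8, mm10 chr4:130308595-130315463), had 507 TPM in replicate 2 and 137 TPM in replicate 1, 3.56-fold higher in replicate 2 (95% counting interval 3.43 to 3.71). Lpl, the lipoprotein lipase of the vessel wall (chr8:68880491-68907448), had 185 TPM in replicate 2 and 68.9 TPM in replicate 1, 2.62-fold higher (2.56 to 2.69). Cd36, the fatty acid translocase of the cell surface (chr5:17781690-17888801), had 145 TPM in replicate 2 and 62.3 TPM in replicate 1, 2.20-fold higher (2.12 to 2.29). These 3 passed the call, and the counting intervals of each lie above 2. Fabp3 was also called by edgeR's exact test, which takes the spread between the libraries into account, and Lpl and Cd36 were not; that test called 1.45% of all genes tested higher in replicate 2. Slc27a1, the insulin-responsive fatty acid transport protein of muscle and fat, was 1.73-fold higher in replicate 2 (39.6 TPM, against 21.3 TPM in replicate 1) and was not called. Its relative Slc27a4 was low in both libraries, at 2.96 TPM in replicate 2 and 2.72 TPM in replicate 1, with an adjusted p of 0.904 by the exact binomial test.

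Since Cd36 is a textbook target of the PPAR nuclear receptors, the bases before its start in RefSeq (GRCm38.p6) are shown, minus strand, chr5:17835897-17836146. They lie inside the gene, in an intron of longer annotated transcripts, and overlap no annotated exon. Capitals mark AGGTCA, the core element of nuclear receptor sites, and GGGCGG, the GC box, on either strand (TGACCT and CCGCCC are their reverse complements).
Cd36: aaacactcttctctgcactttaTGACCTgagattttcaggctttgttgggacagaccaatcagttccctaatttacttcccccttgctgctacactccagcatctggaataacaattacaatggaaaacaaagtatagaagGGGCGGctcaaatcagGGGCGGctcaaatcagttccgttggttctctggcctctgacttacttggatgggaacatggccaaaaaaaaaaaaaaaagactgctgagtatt
An AGGTCA on the opposite strand stands 228 to 223 bases before that start, and a pair of GC boxes at 109 to 104 and 93 to 88 bases. The nearest GENCODE start of Cd36 lies 179 nt away. These are matches of letters in a window, not sites of binding.

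The lipases of the cell's own triglyceride differed less. Pnpla2, the triglyceride lipase that takes the first fatty acid from stored fat, had 121 TPM in replicate 2 and 93.6 TPM in replicate 1, 1.25-fold. Lipe, hormone-sensitive lipase, had 9.57 TPM in replicate 2 and 8.29 TPM in replicate 1, 1.13-fold with an adjusted p of 0.0487. Mgll, which splits the last fatty acid from the glycerol, had 19.3 TPM in replicate 2 and 11.6 TPM in replicate 1, 1.62-fold. None of the 3 was called at 2-fold. All had an adjusted p below 0.05 by the exact binomial test, which without a fold minimum is no result about them. Pnpla2 stood 12.7 times above Lipe in replicate 2 and 11.3 times in replicate 1 in TPM (11.99 ± 0.98, SD, n = 2).

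The acyl-CoA synthetases, which join fatty acids to coenzyme A, parted by isozyme. Acsl1, the main synthetase of muscle, heart and fat, had 119 TPM in replicate 2 and 69.5 TPM in replicate 1, 1.64-fold. Acsl3, a synthetase of the endoplasmic reticulum and lipid droplets, had 3.88 TPM in replicate 2 and 7.25 TPM in replicate 1, 0.563-fold (0.495 to 0.640), the lowest ratio of the 35 genes. Acsl4, which prefers arachidonic acid, had 7.53 TPM in replicate 2 and 9.61 TPM in replicate 1, 0.753-fold. Acsl6 had 13.0 TPM in replicate 2 and 14.2 TPM in replicate 1, 0.901-fold, and its log2 ratio of -0.15 turned to 0.073 when libraries were scaled by spike-in totals. Acsl5 had 2.15 TPM in replicate 2 and 1.06 TPM in replicate 1 and did not pass (adjusted p = 0.0998, exact binomial test). Acsl1 held 81.7% of the family's TPM in replicate 2 and 68.4% in replicate 1 (75.0 ± 9.41%, SD, n = 2), and Acsl6 8.97% and 14.0% in those libraries. Reads of Acsl6 stand beside those of an antisense gene, Gm12224, which overlaps it over 13111 nt and had 49.95 TPM in replicate 2 and 57.1 TPM in replicate 1. Acsl5 is overlapped over 26430 nt by Zdhhc6 on the opposite strand. Zdhhc6 had 622 counts in replicate 2 and 506 in replicate 1, and Acsl5 had 199 and 139 in those libraries. How strand was used in counting is not given in the sources used here, so the reads of each pair may not be fully apart.

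Of the promoters searched, Acsl6 alone among the 30 genes with a window held TCAAGGTCA, the extended element that estrogen-related receptors are known to bind. The bases before the Acsl6 start (RefSeq, GRCm38.p6, plus strand, chr11:54303574-54303797) are shown for that reason, with capitals as above. They end just before the gene's first base in GENCODE, and the last 26 bases before the RefSeq start, which GENCODE places in an exon, are left out.
Acsl6: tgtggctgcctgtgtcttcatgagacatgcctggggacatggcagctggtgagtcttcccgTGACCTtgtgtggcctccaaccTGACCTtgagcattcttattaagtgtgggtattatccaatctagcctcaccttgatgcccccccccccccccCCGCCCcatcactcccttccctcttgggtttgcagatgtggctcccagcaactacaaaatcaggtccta
The extended element is on the opposite strand, 167 to 159 bases before the RefSeq start, and contains the AGGTCA at 167 to 162. A further AGGTCA stands at 189 to 184.

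The carnitine shuttle had a narrow range of ratios. Cpt1b, the muscle form of carnitine palmitoyltransferase 1 and the entry step for long-chain fatty acids, had 142 TPM in replicate 2 and 101 TPM in replicate 1, 1.33-fold. Cpt1a, the liver form, had 3.51 TPM in replicate 2 and 3.24 TPM in replicate 1, so that Cpt1b held 97.2% and 96.6% of the family's TPM in those libraries (96.9 ± 0.39%, SD, n = 2). Cpt2, the enzyme of the inner membrane, had 27.1 TPM in replicate 2 and 19.2 TPM in replicate 1, and the Cpt1b to Cpt2 ratio was 5.26 in replicate 2 and 5.27 in replicate 1. Mlycd, which breaks down malonyl-CoA, the inhibitor of Cpt1, had 36.8 TPM in replicate 2 and 25.04 TPM in replicate 1, 1.41-fold. All 4 ratios lay between 1.28 and 1.41, and none was called. Each had an adjusted p below 0.05 by the exact binomial test, which small differences also reach and which is no result about these genes. Acacb, which makes malonyl-CoA at the mitochondrion, was outside the list, and Mlycd stood at 0.552 of its TPM in replicate 2 and 0.443 in replicate 1. A readthrough gene, Gm44502, shares 75.6% of the 100-nt windows of Cpt1b transcripts but took 0.22 TPM in replicate 2 and 0.21 TPM in replicate 1.

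All 9 enzymes of the beta-oxidation spiral had a ratio above 1, and 1 was called at 2-fold. Each had an adjusted p below 0.05 by the exact binomial test, which small differences also reach at such counts. Acadl, the long-chain acyl-CoA dehydrogenase (ENSMUSG00000026003.5, chr1:66830839-66863277), had 128 TPM in replicate 2 and 56.9 TPM in replicate 1, 2.16-fold (2.08 to 2.25). Acaa2, the thiolase that ends each turn for shorter chains, had 99.05 TPM in replicate 2 and 47.3 TPM in replicate 1, 1.93-fold with an interval of 1.83 to 2.04 that spans 2. Acadvl, the very-long-chain dehydrogenase of the inner membrane, had 159 TPM in replicate 2 and 90.98 TPM in replicate 1, 1.73-fold. Acadm, the medium-chain dehydrogenase, had 180 TPM in replicate 2 and 104 TPM in replicate 1, 1.69-fold. Acads, the short-chain dehydrogenase, had 31.3 TPM in replicate 2 and 21.6 TPM in replicate 1, 1.39-fold, the lowest ratio of the 9. The shares of the 4 dehydrogenases in their summed TPM were 36.0% and 38.1% for Acadm in replicate 2 and replicate 1, 31.9% and 33.2% for Acadvl, 25.7% and 20.8% for Acadl, and 6.27% and 7.88% for Acads.

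Echs1, the short-chain enoyl-CoA hydratase, had 58.1 TPM in replicate 2 and 39.8 TPM in replicate 1, 1.41-fold. Hadh, the short-chain hydroxyacyl-CoA dehydrogenase, had 79.5 TPM in replicate 2 and 51.7 TPM in replicate 1, 1.49-fold. Both lay near the members' median ratio of 1.49.

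Hadha and Hadhb encode the alpha and beta subunits of the mitochondrial trifunctional protein, which carries out the later steps for long chains. Hadha had 167 TPM in replicate 2 and 98.1 TPM in replicate 1, 1.66-fold (1.62 to 1.71), and Hadhb had 219 TPM in replicate 2 and 134 TPM in replicate 1, 1.60-fold (1.56 to 1.66). The counting intervals of the 2 subunits overlap. Their genes lie head to head on chromosome 5, and GENCODE leaves 85 bases between them (chr5:30155163-30155247, given on the plus strand, which reads toward Hadhb). This stretch, from RefSeq (GRCm38.p6), is shown because it is the whole space between the 2 starts, with GC boxes in capitals.
Hadha and Hadhb: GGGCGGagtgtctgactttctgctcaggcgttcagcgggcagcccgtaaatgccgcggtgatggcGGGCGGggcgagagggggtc
It holds 2 GC boxes and 69.4% G and C. The Hadha to Hadhb ratio of TPM was 0.763 in replicate 2 and 0.730 in replicate 1 (0.747 ± 0.023, SD, n = 2), but 0.502 and 0.496 in the second quantification, so this level ratio depends on the quantification while the libraries differ by little in either.

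The upstream bases of Acadl, the called dehydrogenase, and of Acadvl, the uncalled one with the next highest ratio, are shown, again from RefSeq (GRCm38.p6) with AGGTCA and GC boxes in capitals: Acadl on the minus strand, chr1:66863310-66863559, and Acadvl on the minus strand, chr11:70015429-70015678. Both overlap no annotated exon and end 32 nt (Acadl) and 17 nt (Acadvl) from the nearest GENCODE start.
Acadl: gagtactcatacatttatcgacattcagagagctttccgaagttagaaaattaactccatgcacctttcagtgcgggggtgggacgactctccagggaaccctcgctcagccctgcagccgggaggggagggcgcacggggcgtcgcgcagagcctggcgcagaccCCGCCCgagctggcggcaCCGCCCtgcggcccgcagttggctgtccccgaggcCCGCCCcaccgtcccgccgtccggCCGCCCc
Acadvl: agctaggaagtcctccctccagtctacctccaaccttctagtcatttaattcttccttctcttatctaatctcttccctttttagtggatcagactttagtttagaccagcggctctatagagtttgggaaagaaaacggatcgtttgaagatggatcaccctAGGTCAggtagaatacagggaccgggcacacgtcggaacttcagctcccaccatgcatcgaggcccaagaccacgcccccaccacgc
Acadl holds 4 GC boxes, no AGGTCA and 68% G and C. Acadvl holds an AGGTCA at 87 to 82 bases before the start, no GC box and 49.6% G and C. The windows of the other uncalled dehydrogenases held 60.4% G and C with a GC box and no AGGTCA (Acads) and 64% G and C with an AGGTCA and no GC box (Acadm), so the contrast between Acadl and Acadvl does not divide called from uncalled genes.

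The 3 electron transfer genes, which pass electrons from the acyl-CoA dehydrogenases to the respiratory chain, had nearly equal ratios. Etfa had 128 TPM in replicate 2 and 75.6 TPM in replicate 1, 1.62-fold. Etfb, its partner subunit, had 140 TPM in replicate 2 and 87.7 TPM in replicate 1, 1.56-fold. Etfdh, the ubiquinone oxidoreductase, had 58.8 TPM in replicate 2 and 34.3 TPM in replicate 1, 1.65-fold. None was called at 2-fold and all 3 were at 1.5-fold. The Etfa to Etfb ratio was 0.920 in replicate 2 and 0.862 in replicate 1.

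The auxiliary enzymes, which move or remove double bonds of unsaturated chains, had lower ratios. Eci1, an enoyl-CoA isomerase of mitochondria, had 68.6 TPM in replicate 2 and 44.9 TPM in replicate 1, 1.46-fold. Eci2, an isomerase found in mitochondria and peroxisomes, had 34.3 TPM in replicate 2 and 25.0 TPM in replicate 1, 1.23-fold. Decr1, the dienoyl-CoA reductase of mitochondria, had 31.2 TPM in replicate 2 and 21.9 TPM in replicate 1, 1.35-fold. None of the 3 was called. Their adjusted p was below 0.05 by the exact binomial test, which without a fold minimum is no result about them.

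Thioesterases split acyl-CoA back to free fatty acid and coenzyme A. Acot13 was the most abundant of the 3, with 64.4 TPM in replicate 2 and 48.5 TPM in replicate 1, 1.28-fold. Acot2, the mitochondrial form (chr12:83987861-83993873), had 9.83 TPM in replicate 2 and 4.69 TPM in replicate 1, 2.02-fold with an interval of 1.77 to 2.32. Acot1, the cytosolic form (chr12:84009490-84018371), had 61.8 counts in replicate 2 and 9.55 counts in replicate 1, 5.48-fold with an interval of 2.78 to 11.9, and 2.04-fold in the second quantification. The genes lie 15616 nt apart on chromosome 12, and 359 of the 100-nt windows of Acot2 transcripts, 17.1% of them, occur in Acot1 transcripts as well. The deposited posterior standard deviation of the count was 7.17 reads for Acot1 and 7.05 reads for Acot2 in replicate 2, so the level of Acot1 is uncertain and its fold more so. Because the 2 neighbours are so alike in their transcripts, their upstream bases are shown (RefSeq, GRCm38.p6, plus strand): Acot2 at chr12:83987611-83987860 and Acot1 at chr12:84009252-84009489 without the 12 bases that GENCODE places in an exon.
Acot2: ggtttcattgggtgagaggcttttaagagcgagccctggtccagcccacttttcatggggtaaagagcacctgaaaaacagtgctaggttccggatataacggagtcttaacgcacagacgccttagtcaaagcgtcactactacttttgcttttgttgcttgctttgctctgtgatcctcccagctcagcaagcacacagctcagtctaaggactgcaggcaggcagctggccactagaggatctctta
Acot1: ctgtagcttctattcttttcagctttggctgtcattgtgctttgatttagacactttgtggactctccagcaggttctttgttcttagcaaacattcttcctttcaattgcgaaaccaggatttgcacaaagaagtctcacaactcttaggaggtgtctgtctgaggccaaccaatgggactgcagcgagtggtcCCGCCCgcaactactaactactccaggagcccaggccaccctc
Acot1 holds 1 GC box, 55 to 50 bases before its RefSeq start, and Acot2 none, and neither holds AGGTCA.

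Reads that fit several genes limit some of these values. Of the 35 genes, 26 shared no 100-nt window of their transcripts with another gene, and 9 shared some. Beside Cpt1b and the Acot neighbours, the largest shares were 35.8% for Etfb with Gm45233, 21.7% for Fabp3 with the pseudogene Fabp3-ps1 and 14.8% for Hadhb with the pseudogene Gm13910. The posterior standard deviation of the Fabp3 count was 13.8 reads of 12694 in replicate 2 and 6.96 reads of 3137 in replicate 1. Annotated genes overlap 17 of the members, 12 of them on the opposite strand.

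**Figure D3:**
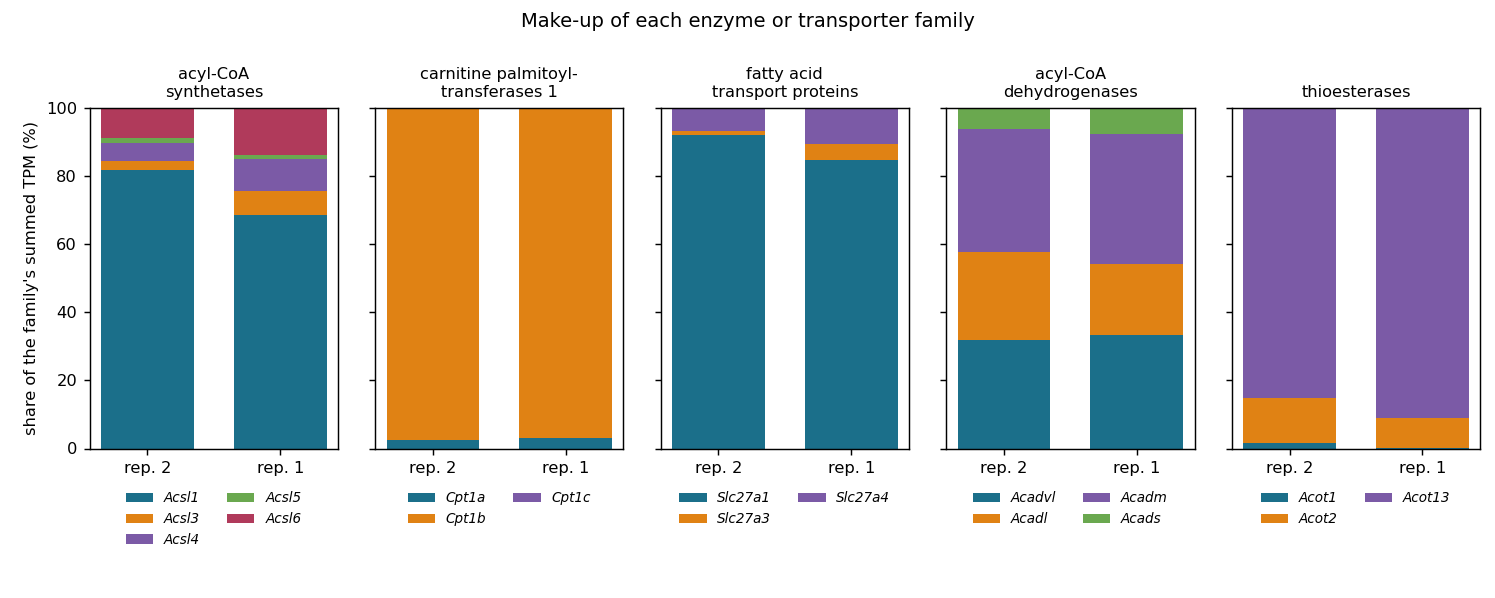
Share of each isozyme in the summed TPM of its family, with replicate 2 on the left and replicate 1 on the right of each panel. A single gene fills most of the bar among the synthetases (Acsl1), carnitine palmitoyltransferases 1 (Cpt1b), transport proteins (Slc27a1) and thioesterases (Acot13), while the dehydrogenases are divided among Acadm, Acadvl and Acadl.

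RefSeq upstream windows were matched for 30 of the 35 genes, 37 windows in all, and searched on both strands beside all 32851 windows of the same 250-base length. No window was matched for Lpl, which was called, or for Cpt1b, Acaa2, Decr1 and Acot13. Shares below are of windows, and some genes, such as Slc27a1 and Acsl6, have several. AGGTCA was found in 16.2% of the members' windows (Acadm, Cd36, Echs1, Acsl6, Acadvl and Cpt1a) and in 14.0% of all windows. A direct repeat of that element (AGGTCA, any base, AGGTCA), which PPAR and its partner receptor are known to bind, was in none of the members' windows and in 0.0335% of all. TCAAGGTCA, which contains AGGTCA, was in 1 of the 37 and in 0.387% of all. GGGCGG was in 64.9% of the members' windows and 32.7% of all, CCAAT in 45.9% and 33.8%, CANNTG (the E-box) in 64.9% and 66.2%, and TATAAA in 0% and 12.4%. The median G and C content was 60% for the members' windows and 52.4% for all. GGGCGG is itself made of G and C, and the part of base composition in its share was not tested. A window without a match says nothing of the factor.

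Transcript use was read from the deposited transcript tables, which divide the same reads among 212 annotated transcripts of the 35 genes. The leading transcript was the same in both libraries for 33 genes in the first quantification and for 31 in the second, and it was the same in both libraries and both quantifications for 27. In 13 genes the leading transcript of the first quantification held at least 90% of the gene's TPM in both libraries. For 2 genes it is not annotated as protein-coding. Hadha-201, annotated as a processed transcript, held 74.2% of Hadha in replicate 2 and 74.4% in replicate 1, and Hadha-205, which is protein-coding, 17.1% and 16.2% in those libraries. Pnpla2-201, annotated as a target of nonsense-mediated decay, held 61.9% of Pnpla2 in replicate 2 and 56.2% in replicate 1. These transcripts also came first in the second quantification, Hadha-201 at 77.6% in replicate 2 and 77.2% in replicate 1 and Pnpla2-201 at 69.6% and 63.2%. For Hadha and Pnpla2, most of the level given above is therefore assigned to transcripts outside the protein-coding class in this annotation. Protein-coding transcripts of Slc27a1 together held 49.7% of its TPM in replicate 2 and 49.6% in replicate 1 in the first quantification. In the second they held 64.7% and 58.7% in those libraries.

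Some genes changed their leading transcript with the quantification. Cd36-203 led Cd36 in the first, with 44.6% in replicate 2 and 47.5% in replicate 1, but had 4.69% and 0.533% in the second, where Cd36-202 led with 36.8% in replicate 2 and 40.5% in replicate 1. Both are protein-coding. Hadhb-208, a retained intron of 507 nt, had 28.2% of Hadhb in replicate 2 and 30.2% in replicate 1 in the first quantification, and 54.3% and 53.2% in the second, ahead of the protein-coding Hadhb-201. Protein-coding transcripts of Acadvl together held 88.7% in replicate 2 and 85.9% in replicate 1 in the first quantification, against 57.0% and 55.0% in the second. The ratios of scaled counts between the libraries depended little on the quantification. For every member except Acot1, that log2 ratio in the 2 quantifications differed by at most 0.062. Ratios of TPM depended more on it for some members. Acsl3 had 3.88 TPM in replicate 2 and 7.25 TPM in replicate 1 in the first quantification. In the second it had 8.49 and 10.2 TPM in those libraries.

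**Figure D4:**
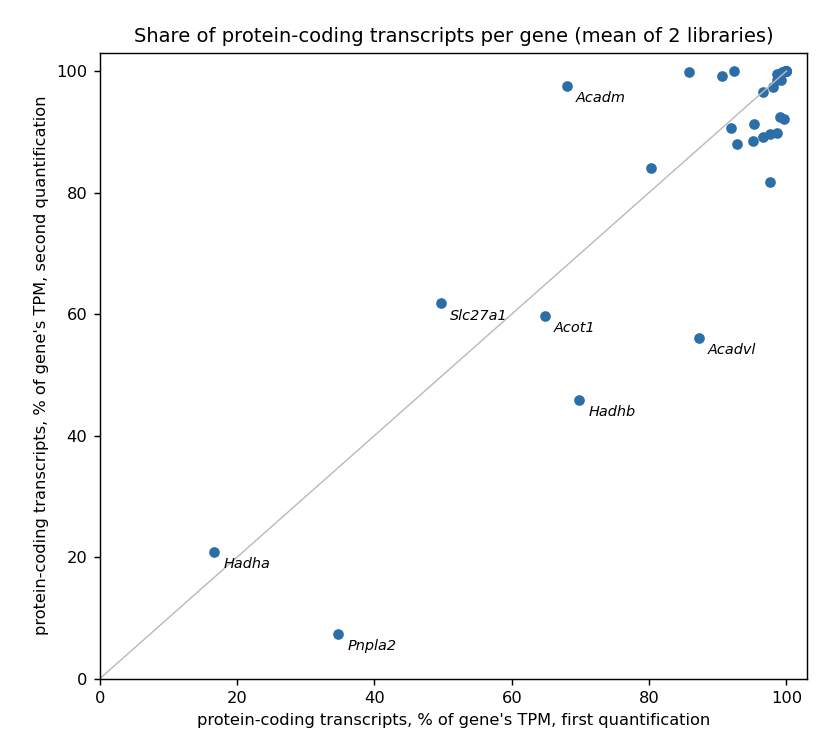
Share of each gene's TPM held by protein-coding transcripts, as a percent and a mean of both libraries, in the first quantification (horizontal) and the second (vertical); the line marks equal shares. Most genes sit near 100 on both axes, Hadha and Pnpla2 are low on both, and Acadvl, Hadhb and Acadm lie far from the line. Slc27a1 and Acot1 also lie below most genes on both axes.

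Genes around this route were read from lists of the same kind. Of 32 other genes of lipid handling, 27 had a log2 ratio above 0 (31 with spike-in scaling), 3 were called higher in replicate 2 and 1 higher in replicate 1, with a median log2 ratio of 0.17. Plin5, which ties lipid droplets to mitochondria, had 9.49 TPM in replicate 2 and 3.21 TPM in replicate 1, 2.85-fold. Dgat2, which completes triglyceride synthesis, had 23.6 TPM in replicate 2 and 6.87 TPM in replicate 1, 3.35-fold, and G0s2, an inhibitor of the lipase Pnpla2, was 2.39-fold higher in replicate 2. Slc27a3, at 0.43 TPM in replicate 2 and 1.16 TPM in replicate 1, was called higher in replicate 1. The list's most abundant genes were not called: Got2 had 164 TPM in replicate 2 and 116 TPM in replicate 1, and Crat, carnitine acetyltransferase, 159 and 136 TPM in those libraries. Slc25a20, the carnitine carrier of the inner membrane, was 1.61-fold and not called.

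Peroxisomes shorten very long and branched chains by a separate set of enzymes. Of 16 tested genes of that set, 10 had a log2 ratio above 0 (14 with spike-in scaling) and the median was 0.080, also with Slc27a2 at its lower bound. Slc27a2 alone was called, with 20 counts in replicate 2 and 0 in replicate 1, at least 5.87-fold higher in replicate 2 against a floor of 3 counts in that library. Phyh, of branched-chain breakdown, was 1.34-fold and not called, and Scp2 had 61.9 TPM in replicate 2 and 61.05 TPM in replicate 1. The highest log2 ratio of the others was 0.42, below the members' median of 0.57.

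Among 13 PPAR targets and regulators, 3 were called higher in replicate 2 and none higher in replicate 1, with a median log2 ratio of 0.17. Ppara, the nuclear receptor known to induce many of the 35 genes, had 9.22 TPM in replicate 2 and 3.86 TPM in replicate 1, 2.44-fold. Esrrg, the estrogen-related receptor gamma of oxidative muscle, had 14.7 TPM in replicate 2 and 2.90 TPM in replicate 1, 4.27-fold. Classical targets were not called: Pdk4, which holds back glucose oxidation and was the list's most abundant gene, had 319 TPM in replicate 2 and 291 TPM in replicate 1, and Angptl4, an inhibitor of Lpl, had 2.77 and 2.41 TPM in those libraries. Rxra, the partner receptor of the PPARs, had 54.6 TPM in replicate 2 and 65.3 TPM in replicate 1 and was not called. Ucp3, the muscle uncoupling protein, was lower in replicate 2, with 39.8 TPM, against 75.8 TPM in replicate 1, 0.516-fold and not called.

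All 17 citric acid cycle genes had a log2 ratio above 0 with none called in either direction and a median of 0.27. Mdh2, the malate dehydrogenase of mitochondria, had 441 TPM in replicate 2 and 346 TPM in replicate 1. The Hadha to Cs ratio of TPM, a spiral enzyme over citrate synthase, was 0.671 in replicate 2 and 0.443 in replicate 1. Of 12 glycolysis genes, 1 had a log2 ratio above 0 (2 with spike-in scaling), none was called, and the median was -0.43. Aldoa had 9226 TPM in replicate 2 and 11024 TPM in replicate 1, and Gapdh 3573 and 4474 TPM in those libraries.

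**Figure D5:**
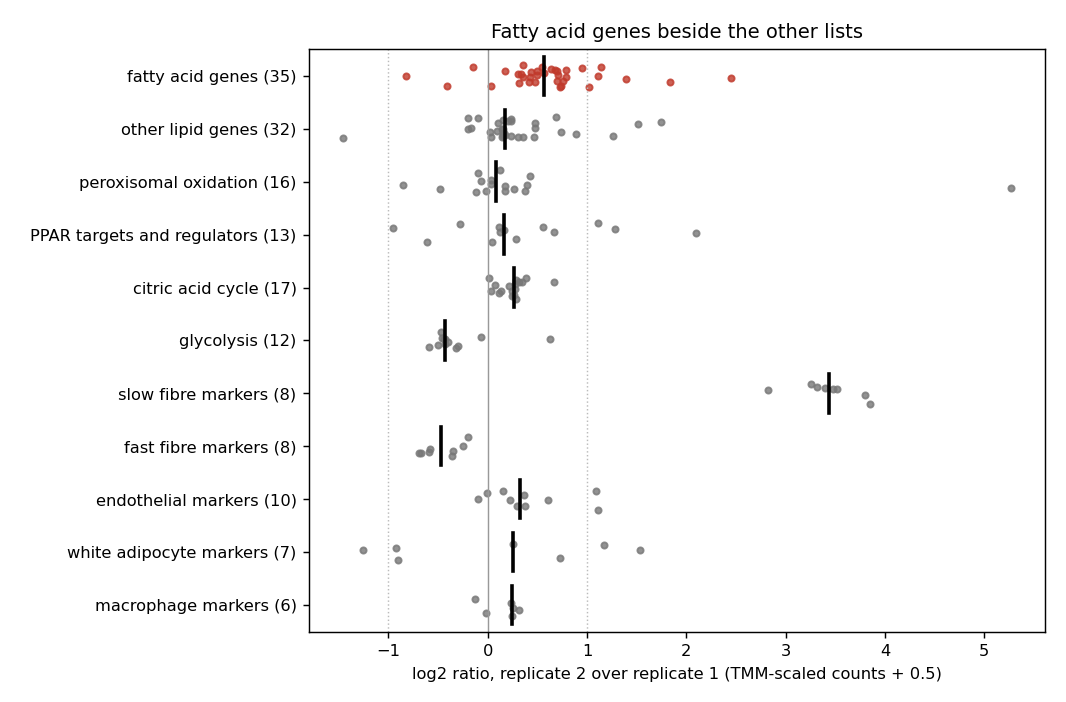
Log2 ratio of replicate 2 to replicate 1 for each tested gene (points) of the 35 fatty acid genes and 10 other lists, with the list median as a bar and the number of genes in parentheses; dotted lines mark 2-fold. The fatty acid genes centre at 0.57, the slow fibre markers lie apart at 3.43, and glycolysis and fast fibre markers centre below 0; the peroxisomal point at 5.27 is Slc27a2, whose place depends on the 0.5 added to a count of 0.

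Markers of fibre types and of other cell types were read in the same way. All 8 slow fibre markers were called higher in replicate 2, with a median log2 ratio of 3.43 and a summed level of 2125 TPM in replicate 2 and 192 TPM in replicate 1. Myl2, the slow regulatory light chain, had 564 TPM in replicate 2 and 40.02 TPM in replicate 1. Myl3 was 9.58-fold higher in replicate 2, and the other 6 (Myh7, Tnnt1, Tnni1, Tnnc1, Atp2a2 and Myh7b) were 7.06-fold to 13.9-fold higher. None of 8 fast fibre markers was called, all had a log2 ratio below 0 (all but 1 with spike-in scaling), and their sum was 76332 TPM in replicate 2 and 101044 TPM in replicate 1. The most abundant of these, Tnnt3, had 15168 TPM in replicate 2 and 18401 TPM in replicate 1, and Myh4 had 11005 and 15964 TPM in those libraries. The part of the fibre types in the higher levels of the fatty acid genes in replicate 2 was not tested.

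Endothelial cells and adipocytes also use several of the 35 genes, Cd36 and Lpl among them. Of 10 endothelial markers, 2 were called higher in replicate 2 (Kdr and Cldn5), and the sum was 88.5 TPM in replicate 2 and 67.8 TPM in replicate 1. Cdh5, the most abundant of them, had 16.96 TPM in replicate 2 and 13.2 TPM in replicate 1, and Egfl7 had 14.6 and 13.6 TPM in those libraries. Of 7 white adipocyte markers, 2 were called higher in replicate 2 (Adipoq and Lep) and 1 higher in replicate 1 (Retn), and the sum was 56.7 TPM in replicate 2 and 61.0 TPM in replicate 1. Cfd, the most abundant of these, had 19.4 TPM in replicate 2 and 35.4 TPM in replicate 1, and Adipoq had 13.5 and 6.47 TPM in those libraries. The brown adipocyte marker Ucp1 was at 0 in both libraries, and the sum of the 4 brown markers was 1.26 TPM in replicate 2 and 0.40 TPM in replicate 1, with Dio2 called. None of 6 macrophage markers was called, and the sum was 22.6 TPM in replicate 2 and 20.8 TPM in replicate 1, led by C1qa and C1qb. The cardiac markers Nppa, Nppb and Myl7 were at 0 in both libraries, and Myh6, the fourth, had 73.2 TPM in replicate 2 and 5.88 TPM in replicate 1, a gene similar in sequence to the slow myosin gene Myh7. Liver markers were present in replicate 2: Alb had 756 counts there and 1 count in replicate 1, Apoa1 48 and 1, and Ttr 57 and 0, all 3 called higher in replicate 2, and the sum of the 4 markers was 14.7 TPM in replicate 2 and 0.05 TPM in replicate 1. The part of these cells, or of liver RNA, in the results on the 35 genes was not tested.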

How the data were processed

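Total RNA was sequenced from the gastrocnemius of male B6CASTF1/J mice in 2 libraries of 1 group, each with ERCC spike-ins and 300 ng of input RNA, per the labels. The assembly is mm10 and the annotation GENCODE M21, per the labels and the deposited file list. The aligner and table-making programs were not given in the sources used here. Of the deposited tables, that of genes and the first of the transcript tables came from reads aligned to the transcriptome, the other transcript table straight from the reads, and it is called the second quantification. Deposited values were expected counts (estimated counts in the second table), TPM, the percent of a gene's TPM held by each transcript, and a posterior standard deviation of the count, per the file headers; the last is a signal-like error that the authors deposited and was used only as given. TPM sums over all entries, and the short RNAs Rn7s1 and Rn7s2 took 22.7% of it in replicate 2 and 28.7% in replicate 1, so shares were taken over the TPM of 22015 nuclear protein-coding genes. TPM shares were computed from the authors' deposited values.

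Expected counts were rounded and each gene tested with a 2-sided exact binomial test of replicate 2 against the sum, with shares from TMM library sizes (edgeR 4.0.16, R 4.3.3) and Benjamini-Hochberg adjustment over genes averaging 10 counts or more (scipy 1.17.1). Folds are TMM-scaled counts + 0.5, and counting intervals are exact (Clopper-Pearson, 95%) without it. Intervals cover counting error only, since reads are not independent molecules. edgeR's quasi-likelihood test needs more than 1 group and was not run; edgeR's exact test, with a dispersion estimated from the libraries it compares (biological coefficient of variation 0.228), was an alternative and its p-values are not printed. Other alternatives were DESeq2 1.42.0 size factors, spike-in totals, other count and fold minimums and the second quantification. The binomial test was tested on simulated data that held counting error only, as the test assumes. That simulation says nothing of spread between libraries. The members, lists and alternatives were chosen with earlier results of these data known. Named genes are all 35 members and, of each other list, called genes and the 2 most abundant, of which some are not reported here; other genes are named as background to the route, after their values were seen. To find shared sequence, transcripts were compared by 100-nt windows, since effective length is 99 nt below length in the gene table. Protein sequences were not used here.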

Additional observations from a re-analysis of the deposited data

How the results depend on the processing

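No paired analysis was possible because the series holds 1 group. The count of 6 members called higher in replicate 2 stayed within 1.5 times under DESeq2 size factors (6), spike-in totals (9, with Acaa2, Acadvl and Slc27a1 added), no filter on counts (6), a mean count of at least 100 (5, without Acot1) and the second quantification (6). It was 2 with edgeR's exact test (Acot1 and Fabp3, where 1.45% of all genes tested were called higher in replicate 2) and 17 at 1.5-fold, where 1 member was called higher in replicate 1. Over all genes, the calls higher in replicate 2 and in replicate 1 were 658 and 248, 1032 and 163 with spike-in totals, 217 and 52 with edgeR's exact test, 273 and 94 at a mean count of at least 100, and 1158 and 560 at 1.5-fold. Spike-in totals raised every log2 ratio by 0.22, so that the median was 0.79 for the members and 0.23 for all genes tested. The members' median log2 ratio lay between 0.55 and 0.79 under its alternatives.

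Isozyme shares that moved beyond the spread between libraries were, by expected counts in place of TPM, Cpt1b (95.6%), Slc27a1 (81.4%), Acadm (31.8%) and Acot13 (69.5%), and in the second quantification Cpt1b (95.998%) and Acadm (30.8%). Counts are not divided by length; the cause in the second quantification was not tested. In the second quantification Acadvl, not Acadm, was the most abundant dehydrogenase, at 40.1% in replicate 2 and 41.6% in replicate 1. The median log2 ratio of the second to the first quantification over members was -0.13 after rescaling to nuclear protein-coding TPM and 0.46 as deposited. The total of the first includes the short RNAs, and their part in this change of sign was not tested. With 1 library left out, 34 to 35 members were detected, their share was 0.359% to 0.695%, the shares were 68.4% to 81.7% for Acsl1, 96.6% to 97.2% for Cpt1b, 84.6% to 92.1% for Slc27a1, 36.0% to 38.1% for Acadm and 85.2% to 90.9% for Acot13, and 28 to 30 genes kept their leading transcript across quantifications. The median of second over first quantification was then -0.132 to -0.125. The other counts and list medians computed under an alternative kept their direction, among them 6 list medians that spike-in totals raised. Single genes near 0 did not: with spike-in totals the log2 ratio of Acsl6 was 0.073 in place of -0.15, and genes above 0 numbered 14 in place of 10 among peroxisomal, 31 in place of 27 among other lipid, 2 in place of 1 among glycolysis, 1 in place of 0 among fast fibre, 10 in place of 8 among endothelial and 6 in place of 4 among macrophage genes.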
